A study of Mus musculus with 143 samples.

Results

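The loci used as viewpoints in the chromosome conformation capture (4C-seq) of this study were Runx3, Lef1, Nfatc1, S1pr1 and Mir181a-1. The reporter activity of the captured regions around them was examined here. Members were all regions of the capSTARR-seq tables that start inside 1 window per locus, in mm9 coordinates. The windows ran from 134.45 to 134.95 Mb on chromosome 4 for Runx3 and from 130.60 to 131.15 Mb on chromosome 3 for Lef1. They ran from 80.60 to 81.10 Mb on chromosome 18 for Nfatc1, from 115.20 to 115.65 Mb on chromosome 3 for S1pr1 and from 139.65 to 140.10 Mb on chromosome 1 for Mir181a-1. They held 76 of 12897 regions: 20 for Runx3, 18 for Lef1, 14 for Nfatc1, 16 for S1pr1 and 8 for Mir181a-1. Every member was 400 bp long and none overlapped another region.

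Of the 143 samples of the study, all from mouse T cells, 3 are capSTARR-seq libraries: 2 RNA replicates and 1 input, all from P5424, an established mouse T cell line. The assay clones captured genomic fragments inside a reporter transcript, whose level relative to the input measures the enhancer activity of the fragment it carries. The labels name no treatment or genotype for P5424 and list total RNA as the molecule of the input too. They name no separate cultures or transfections for the replicates, so p-values measure no spread beyond these libraries. The spread used comes from the 2 RNA libraries, combined with its trend over all regions, and the single input adds none of its own. The other 140 samples were not analysed here; 63 of them are 4C libraries, 40 from 5 Runx3 viewpoints, 5 from Nfatc1, and 6 each from Lef1, S1pr1 and mir181, made from DN3, DP, naive CD4+ and, for Runx3, naive CD8+ T cells.

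The loci belong to different arms of T cell development. Runx3 encodes a Runt domain transcription factor of the CD8+ lineage that represses Cd4, and it is transcribed from a distal and a proximal promoter. Lef1 encodes a high mobility group factor that acts with TCF-1 in early thymocytes. Nfatc1 encodes a factor that enters the nucleus after calcium signalling by the T cell receptor. S1pr1 encodes the sphingosine-1-phosphate receptor by which mature T cells leave the thymus. Mir181a-1 gives rise to a microRNA that tunes the sensitivity of the T cell receptor in thymocytes, and Mir181b-1 lies beside it.

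For the fifth viewpoint the labels say mir181 without a further letter or number. The mature products of Mir181a-1 and Mir181b-1 are shown to describe the locus of its window. They are from RefSeq (GRCm38.p6, plus strand of chromosome 1), and the capitals mark the seed, bases 2 to 8.
mmu-miR-181a-5p: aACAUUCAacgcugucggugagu
mmu-miR-181b-5p: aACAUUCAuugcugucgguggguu
mmu-miR-181a-1-3p: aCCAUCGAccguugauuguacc
mmu-miR-181b-1-3p: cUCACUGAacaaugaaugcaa
The 5p products of Mir181a-1 and Mir181b-1 have the same seed, ACAUUCA, and the 3p products have seeds of their own.

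For Runx3 the labels name viewpoints P1, P2, E1, E2 and E3 without spelling out the letters, and RefSeq lists 2 start sites. The 250 bases before each are shown because they set the locus's start sites apart. Capitals mark the RUNX motif TGTGGT on either strand. The windows are chr4:135120395-135120644 and chr4:135152295-135152544, plus strand, in build GRCm38.p6 and not in the mm9 of the reporter tables, so no reporter region was matched to them.
Runx3 first start site: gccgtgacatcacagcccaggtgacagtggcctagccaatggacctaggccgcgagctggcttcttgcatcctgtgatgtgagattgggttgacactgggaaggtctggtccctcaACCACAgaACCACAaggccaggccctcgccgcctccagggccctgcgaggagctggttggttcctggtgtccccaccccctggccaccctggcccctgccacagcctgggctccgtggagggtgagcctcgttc
Runx3 second start site: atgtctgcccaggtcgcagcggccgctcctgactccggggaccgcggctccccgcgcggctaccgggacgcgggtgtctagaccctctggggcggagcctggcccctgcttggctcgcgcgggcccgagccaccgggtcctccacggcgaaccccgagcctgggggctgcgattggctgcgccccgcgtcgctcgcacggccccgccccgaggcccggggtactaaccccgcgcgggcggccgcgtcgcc
The first holds the motif in 2 places, 134 and 126 bases before the start site and both on the minus strand. The second does not hold these letters and is richer in G and C, at 78.8% against 65.2%. Of 32851 promoters in the table, 14.0% held the RUNX motif at this length. Another 4 motifs were searched on both strands and were in neither Runx3 stretch. The TCF/LEF motif CTTTGA was held by 13.8% of all promoters. The ETS motif GGAAGT was held by 19.7%. The motif AGATAA of the GATA factors was held by 9.99%, and the E box CAGCTG by 13.0%. Of 4 Lef1 start sites in the table, 1 held the TCF/LEF motif in 2 places and the ETS motif once, and another held the E box once. A motif match is a description of the letters, not a site.

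Few of the captured regions around the 5 loci were active. A region was called active when its fold, RNA FPKM plus 1 over input FPKM plus 1 (FPKM is reads scaled by region length and library size), reached 1.5 in both replicates. Of the 76 regions 6 were active, or 7.89%, beside 8.51% of all regions, so the share around the viewpoints was near the background. A fold of 3 in both replicates was reached by 1 region, in the Nfatc1 window, beside 0.985% of all regions. A fold of 1.5 in exactly 1 replicate was reached by 7 of the 76, beside 11.1% of all regions. RNA lay above the input in both replicates in 16, beside 27% of all regions, and the authors' deposited class was active in both for 3, beside 2.7%. The active regions were 2 of 20 for Runx3, 1 of 18 for Lef1, 2 of 14 for Nfatc1, 0 of 16 for S1pr1 and 1 of 8 for Mir181a-1. The median fold of the 76 was 0.787 in replicate 1 and 0.929 in replicate 2, beside 0.852 and 0.862 over all regions. In the class that the tables name Random it was 0.657 and 0.679, so RNA below the input need not lie below Random.

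**Figure D1:**
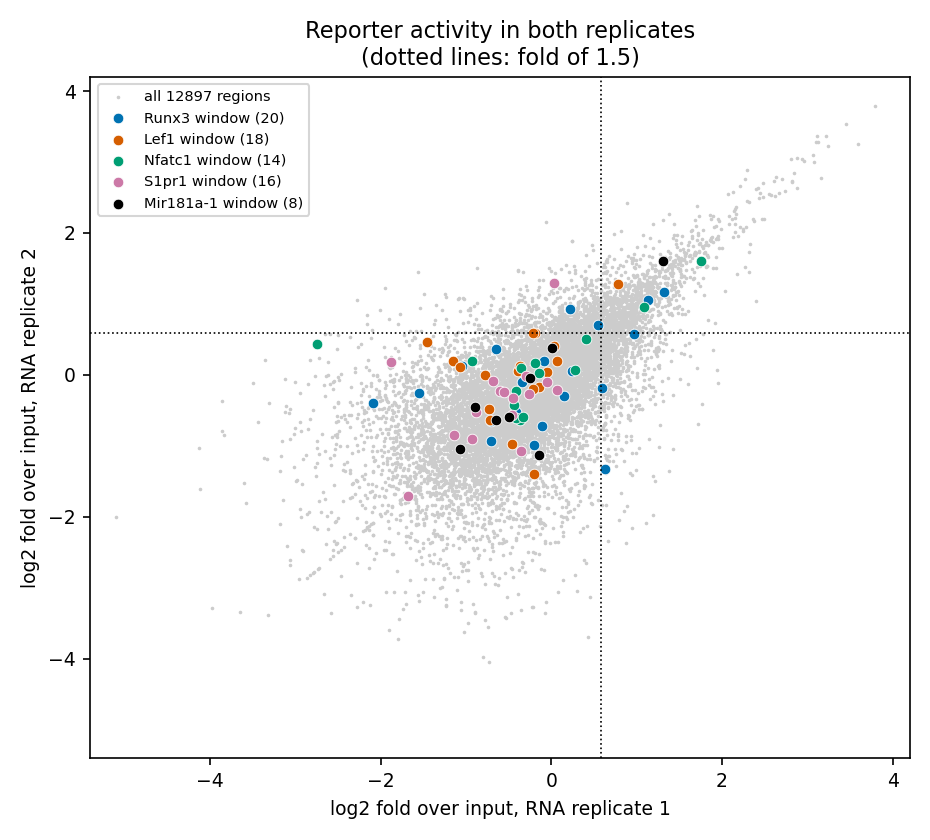
Log2 fold over input in RNA replicate 1 (x axis) and replicate 2 (y axis) for all 12897 regions (grey) and the 76 regions of the 5 windows (coloured); dotted lines mark a fold of 1.5. The 6 active regions lie beyond both lines, and 7 regions lie beyond a single line.

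Each region was also tested against the class that the tables name Random, with limma on log2(FPKM + 1). The fit compared the 2 RNA libraries with the input library over all 12897 regions, two-sided, with Benjamini-Hochberg adjustment, and a call needed at least 1.5-fold over the Random median as well as an adjusted p under 0.05. It called 6 of the 76 regions higher, beside 13.5% of all regions, and 0 lower, beside 0.442%. At an unadjusted limma p under 0.05, 14 lay above the Random median and 0 below it, beside 22.1% and 1.73% of all regions. Of the 6 calls 4 were in the Runx3 window, 1 in the Nfatc1 window and 1 in the Mir181a-1 window. The calls and the active regions shared 4 regions. Against the input itself, without the shift to the Random median, limma kept 1 of the 6 calls. That call was the promoter-class region of the Runx3 window described next, which was not assigned to a gene. Without the trend of variance on level limma kept 0. On data simulated for this comparison with equal noise in input and RNA, the test called 94% of 4-fold and 48% of 2-fold raises. Of its higher calls there, 22% were regions simulated without a change, above the 5% that the adjustment aims at. The simulation raised 200 of 12897 regions. The 22% depends on that number and need not hold for the calls made here. The test called 39% of regions lowered 4-fold, so a lowered region could easily be missed.

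The Runx3 window held 3 regions of the promoter class, 14 of the enhancer class with RNA polymerase II and 3 of the enhancer class without it (Pro_K4me3_K27ac_PolII, Enh_K4me1_K27ac_PolII and Enh_K4me1_K27ac in the tables; the prefixes are read here as promoter and enhancer). In the RefSeq gene order Syf2 lies before Runx3 and Clic4 after it, the tables give no gene names, and regions were not assigned to genes. The most active region of the window was of the promoter class, from 134486876 to 134487275 on chromosome 4. It stood at 547 FPKM in RNA replicate 1 and 489.7 in replicate 2 over 218 in the input. Both RNA libraries lay above the input, with folds of 2.51 and 2.24 and a mean log2 fold of 1.25 ± 0.11 (SD, n = 2). It lay 1.83 above the Random median on the log2 scale (limma SE 0.144, adjusted p = 2.2e-07) and had the most input reads of the active regions, 2885.

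The second active region of the Runx3 window was of the enhancer class with RNA polymerase II, from 134658675 to 134659074. Its level was 39.4 and 37.4 FPKM in the RNA replicates and 17.5 in the input. The replicates differed little from each other and both lay above the input, with folds of 2.18 and 2.08. Its mean log2 fold was 1.09 ± 0.05 (SD, n = 2), and it lay 1.67 above Random (limma SE 0.386, adjusted p = 0.0066). The authors' deposited class called it active in replicate 1 and inactive in replicate 2. A neighbour of the same class lay 1.25 kb away between midpoints. It stood below its input in both replicates, with folds of 0.612 and 0.635, near the Random medians of 0.657 and 0.679. The next promoter-class region lay 17.5 kb away.

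That promoter-class region, from 134676176 to 134676575, and an enhancer-class region with RNA polymerase II, from 134736025 to 134736424, were called higher by limma although each missed a fold of 1.5 in 1 replicate. They fall outside the rule for naming regions and were chosen after their values were seen. The promoter-class region stood at 93.7 and 103.8 FPKM over 63.6 in the input, folds of 1.47 and 1.62. It lay 1.21 above Random (limma SE 0.236, adjusted p = 0.0019). The enhancer-class region stood at 129.6 and 98.02 FPKM over 65.5, folds of 1.96 and 1.49. It lay 1.36 above Random (limma SE 0.247, adjusted p = 0.0010). In both regions each RNA library lay above the input.

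The enhancer-class region at 134736025 stood between 2 close neighbours of the same class that did not share its level. The one 1.45 kb before it had folds of 0.754 and 0.693. The one 0.8 kb after it, from 134736825 to 134737224, was the lowest of the Runx3 window, whose RNA reads were 0 in replicate 1 and 37 in replicate 2, against 43 for the input. Its mean log2 fold was -1.24 ± 1.19 (SD, n = 2), a spread too wide to place it below or above Random (limma 95% interval -2.76 to 1.44). Another 3 regions of the window reached 1.5 in a single replicate. They included the region from 134723775, with 46 and 0 RNA reads over 20 input reads, the fewest of any member.

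**Figure D2:**
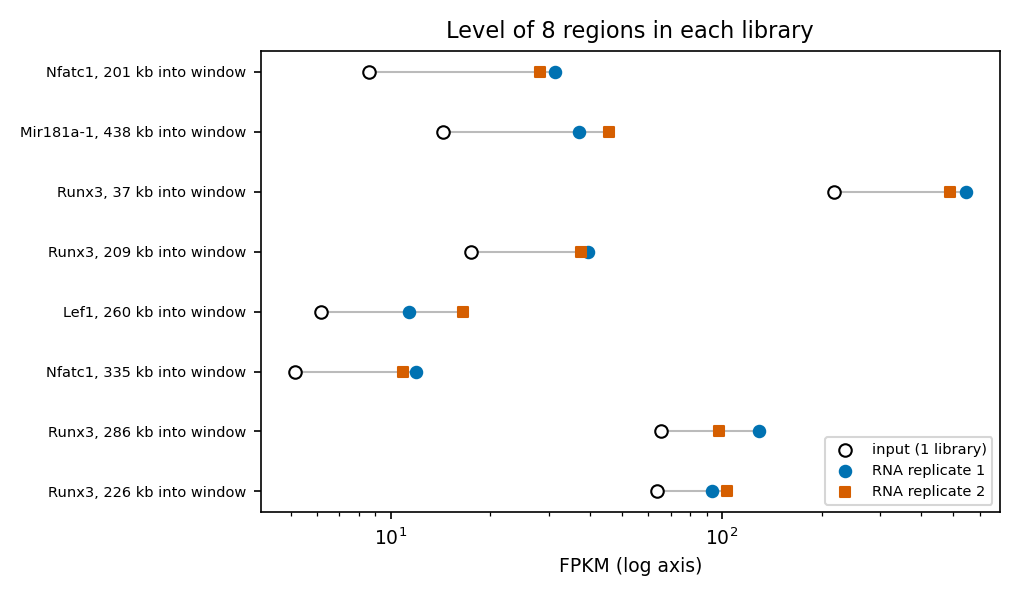
FPKM (log axis) of the 6 active regions and the 2 further regions called by limma, in the input (open circles), RNA replicate 1 (blue circles) and RNA replicate 2 (orange squares); regions are named by window and distance from its start. In all 8 both RNA libraries lie right of the input, and input levels range from 5.13 to 218 FPKM.

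The Lef1 window held 13 enhancer-class regions with RNA polymerase II, 4 without it and 1 of the class TSS_Random, a name that the tables do not explain. Its single active region, from 130860175 to 130860574 on chromosome 3, was of the enhancer class with RNA polymerase II. It stood at 11.3 and 16.5 FPKM in the RNA replicates over 6.18 in the input. Both RNA libraries lay above the input, the second more so, with folds of 1.72 and 2.44 and a mean log2 fold of 1.03 ± 0.36 (SD, n = 2). With 82 input reads it was measured less precisely than the active Runx3 regions, and it did not pass against Random (log2 difference 1.62, limma SE 0.634, adjusted p = 0.117). Its nearest neighbour, 4.1 kb away, had folds of 0.605 and 0.712. With the input taken as free of error it passed (limma adjusted p = 0.018), and over the other alternatives its limma adjusted p reached 0.449.

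The lowest Lef1 region with the pseudocount of 1 FPKM ran from 130897725 to 130898124. It stood at 17.3 and 7.03 FPKM over 20.1 in the input, folds of 0.866 and 0.380. With a pseudocount of 0.1 FPKM the region from 130929525 lay lower, with 0 and 46 RNA reads over 23 input reads. The TSS_Random region, from 131047658 to 131048057, stood at 24.3 and 25.96 FPKM over 40.8, with a mean log2 fold of -0.68 ± 0.06 (SD, n = 2). It lay 0.10 below Random with an interval from -0.92 to 0.73. Among the 4 enhancer-class regions without RNA polymerase II none was active, and their median folds were 0.752 and 0.940.

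The Nfatc1 window held the most active of the 76 regions. It was of the enhancer class with RNA polymerase II, from 80800625 to 80801024 on chromosome 18. RNA stood at 31.3 FPKM in replicate 1 and 28.2 in replicate 2 over 8.60 in the input, or 499 and 469 reads over 114. Both replicates exceeded 3 times the input, with folds of 3.36 and 3.04, and the mean log2 fold was 1.68 ± 0.10 (SD, n = 2). It ranked 137 of all 12897 regions by mean log2 fold and lay 2.26 above Random (limma SE 0.475, adjusted p = 0.0033).

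The captured regions on either side of it were not active. The captured region 5.4 kb before it had folds of 0.753 and 0.853. The one 5.65 kb after it, from 80806275 to 80806674, was the lowest of the window by mean, but its replicates disagreed. Its RNA reads were 0 in replicate 1 and 134 in replicate 2, against 76 for the input, with a mean log2 fold of -1.16 ± 2.25 (SD, n = 2). The second active Nfatc1 region, from 80934900 to 80935299, stood at 12.0 and 10.9 FPKM over 5.13, folds of 2.12 and 1.95. Both RNA libraries lay above the input, yet with 68 input reads it did not pass against Random (log2 difference 1.60, limma SE 0.667, adjusted p = 0.145). With the input taken as free of error it passed (limma adjusted p = 0.020), and over the other alternatives its limma adjusted p reached 0.458. The authors' deposited class called it inactive in both replicates. The window held no promoter-class or TSS_Random region, and the nearest one lay 195.4 kb from this region, outside the window, with folds of 1.97 and 1.76.

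No region of the S1pr1 window was active. Its median folds were 0.705 and 0.835, below the input but above the 0.657 and 0.679 of the Random class. In 13 of the 16 regions of the window RNA lay below the input in both replicates, beside 50.8% of all regions. In 1 it lay above the input in both. That one, from 115461000 to 115461399 on chromosome 3, was of the enhancer class with RNA polymerase II. It stood at 19.2 and 47.6 FPKM over 18.9 in the input. Replicate 1 was level with the input and replicate 2 was well above it, with folds of 1.02 and 2.45 and a mean log2 fold of 0.66 ± 0.89 (SD, n = 2). It lay 1.24 above Random and did not pass (limma SE 0.493, adjusted p = 0.122). It passed where regions under the first quartile of input were left out (limma adjusted p = 0.019). It also passed with the input taken as free of error (limma adjusted p = 0.031), and with no centre its limma adjusted p was 0.602. The lowest of the window, and of all 76 with the pseudocount of 1 FPKM, ran from 115642775 to 115643174. It had 13 RNA reads in each replicate over 64 input reads, a mean log2 fold of -1.70 ± 0.02 (SD, n = 2). It lay 1.11 below Random, with a limma 95% interval from -3.04 to 0.81. With a pseudocount of 0.1 FPKM its mean log2 fold was -2.46. The lowest Runx3 and Nfatc1 regions then lay below it, at -2.79 and -2.69.

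The S1pr1 window also held the single member of the class Enh_K4me1, with folds of 0.735 and 0.797. Its region with the most input reads, 2303, was of the enhancer class without RNA polymerase II and had folds of 0.684 and 0.844.

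The Mir181a-1 window was the least densely captured, with 1.78 regions per 100 kb against 2.80 to 4 in the other windows. Its active region, from 140088400 to 140088799 on chromosome 1, was of the enhancer class with RNA polymerase II. It stood at 37.2 and 45.7 FPKM in the RNA replicates over 14.4 in the input. Both RNA libraries were far above the input, with folds of 2.48 and 3.03 and a mean log2 fold of 1.45 ± 0.21 (SD, n = 2). It lay 2.04 above Random (limma SE 0.392, adjusted p = 0.0016) and ranked 219 of all regions. In the RefSeq order the next protein-coding gene after Mir181a-1 is Ptprc, which encodes CD45, so the window is named for the viewpoint and not for the target of this region.

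A promoter-class region, from 140071726 to 140072125, lay 16.7 kb from it. It stood at 69.0 and 90.0 FPKM over 68.9 in the input, folds of 1.002 and 1.30. It lay 0.77 above Random and did not pass (limma SE 0.259, adjusted p = 0.061). It passed where regions under the first quartile of input were left out (limma adjusted p = 0.028). It also passed with the input taken as free of error (limma adjusted p = 0.0098), and with no centre its limma adjusted p was 0.735. The other 6 regions of the window lay below the input in both replicates. The lowest, from 139981175 to 139981574, stood at 74.0 and 74.7 FPKM over 155.9, folds of 0.478 and 0.483. It lay 0.48 below Random (limma SE 0.225, adjusted p = 0.215), and it was called lower where the centre was the median of all regions (adjusted p = 0.031) or the input itself (adjusted p = 0.045).

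**Figure D3:**
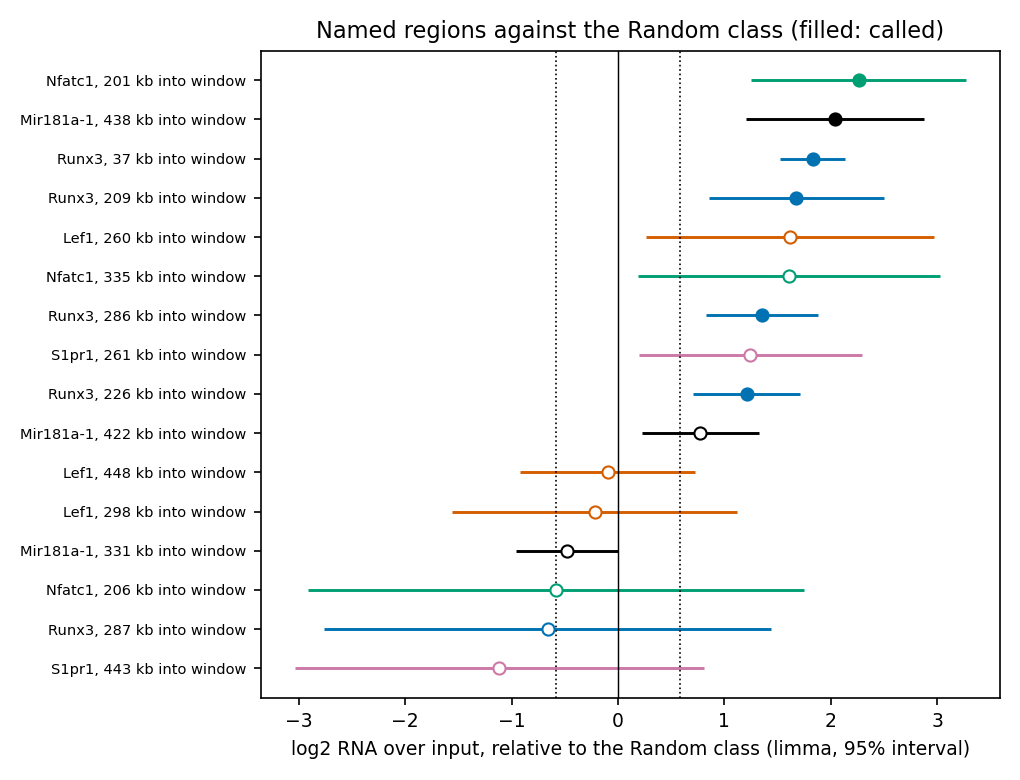
Log2 RNA over input relative to the Random median with limma 95% intervals for the 14 regions named by rule and the 2 further Runx3 calls; filled points were called higher, dotted lines mark a fold of 1.5 either way. The 4 Runx3 calls include the narrowest interval, 1.52 to 2.13, and the regions with few reads have the widest.

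By region class, 5 of the 55 enhancer-class regions with RNA polymerase II were active, or 9.09%, beside 8.86% of that class in the tables. None of the 15 without RNA polymerase II was active, beside 5.22% of that class. Of the 4 promoter-class regions 1 was active, beside 16.8%. These shares were not tested, and with 15 or 4 regions none of them can be told from its background. The sources used here do not say in which cells the marks of the class names were measured.

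Window medians differed less between loci than between replicates for some pairs. The median log2 fold was -0.10 ± 0.27 for Lef1, -0.12 ± 0.04 for Runx3, -0.13 ± 0.30 for Nfatc1, -0.38 ± 0.17 for S1pr1 and -0.45 ± 0.11 for Mir181a-1 (SD of the 2 replicate medians). By this spread between replicates, which is not a spread between regions, Lef1, Runx3 and Nfatc1 did not differ, and neither did S1pr1 and Mir181a-1. S1pr1 and Mir181a-1 each also overlapped with Lef1 and with Nfatc1 within it, so the windows did not form separate groups. Only Runx3 lay apart from S1pr1 and Mir181a-1 by this spread. In each replicate S1pr1 lay below Nfatc1, at -0.50 against -0.35 in replicate 1 and -0.26 against 0.08 in replicate 2. The order of the windows was not tested, and the median over all regions was -0.22.

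**Figure D4:**
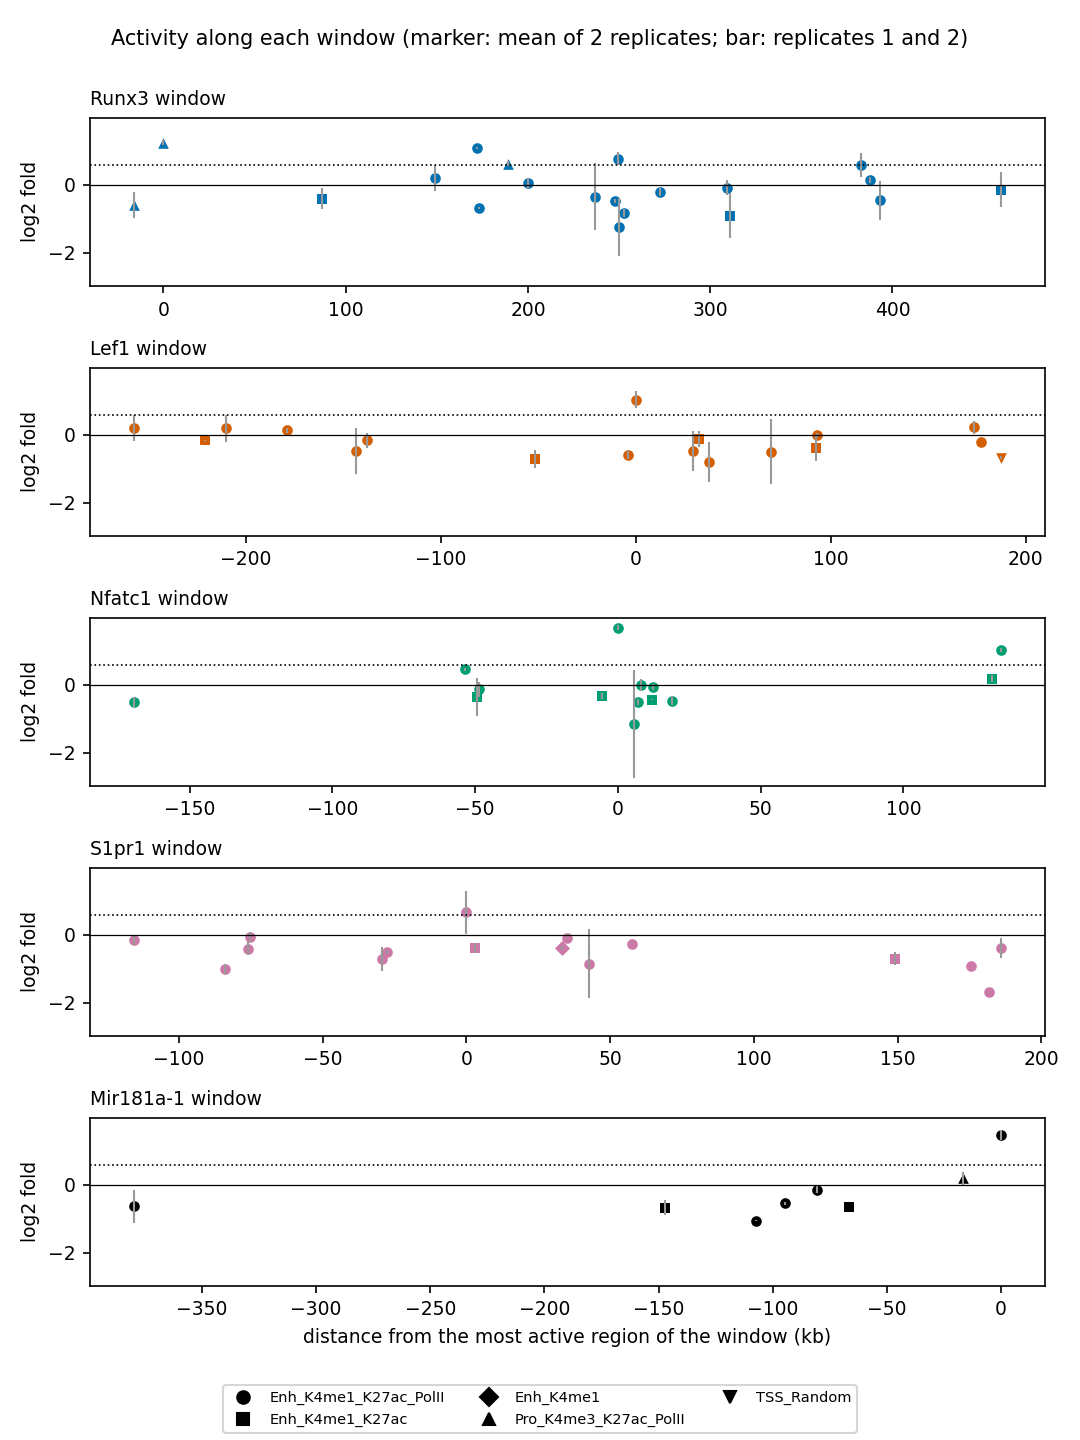
Log2 fold over input along each window against distance in kb from its most active region; markers show the mean of both replicates by region class, grey bars join the replicates and the dotted line marks a fold of 1.5. In each window the regions nearest to the most active one lie below the dotted line.

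Only 1 active region had another member within 2 kb. Of 12 pairs of neighbouring members within 2 kb of each other, 1 included an active region, and no pair had both active. Over all regions 156 such pairs included an active region and in 20.5% of them both were active, so 1 pair says little about the viewpoint loci. The median difference in mean log2 fold within these pairs was 0.44, beside 0.48 over all pairs of the tables. The 2 active Runx3 regions lay 171.8 kb apart and the 2 active Nfatc1 regions 134.3 kb apart. The window edges also counted: widened by 100 kb on each side, the Nfatc1 window held 4 active of 16 regions, while the active counts of the other 4 windows were unchanged at 2, 1, 0 and 1.

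The replicates did not differ in the same way in every window. In the Lef1 window 15 of 18 regions were higher in replicate 2, by a median of 0.41 on the log2 scale, beside 51.3% and 0.02 over all regions. Its median fold was 0.818 in replicate 1 and 1.06 in replicate 2. The corresponding counts were 9 of 20 for Runx3, 8 of 14 for Nfatc1, 10 of 16 for S1pr1 and 5 of 8 for Mir181a-1. Over the 76 regions the log2 folds of the replicates correlated with Pearson r = 0.474, beside 0.642 over all regions, both of which share the input. Of the 76, 13 differed by over 2-fold between replicates, beside 12.9% of all regions. A member had between 20 and 3793 input reads, with a median of 259, and 298 over all regions.

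**Figure D5:**
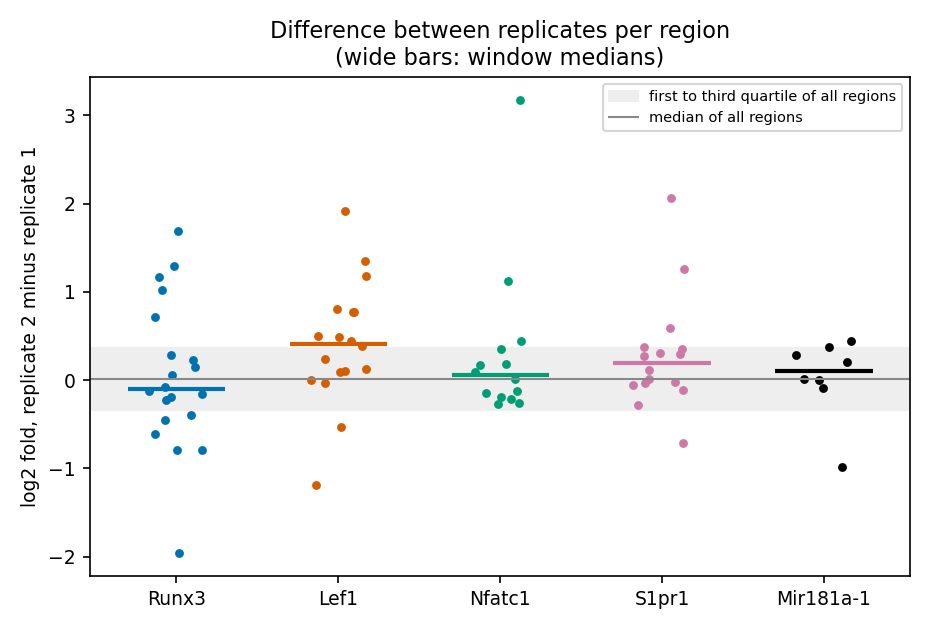
Difference in log2 fold between RNA replicates 2 and 1 for each region (points) with window medians (bars); the grey band spans the first to the third quartile of all regions and the grey line their median. Most Lef1 points lie above the line, with a median of 0.41, and the Runx3 median lies at -0.10.

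The 3 libraries held 7199798 to 9583168 reads over all regions, as recovered from the steps of the FPKM values. Because both folds divide by the same input library, an error of the input moves both in 1 direction. This bears most on the 3 active regions with the fewest input reads, 68, 82 and 114, all of which lay under the first quartile of input.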

How the data were processed

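The capSTARR-seq of P5424 cells was analysed as deposited by the authors: 1 table per RNA replicate with the FPKM of the RNA and of the shared input, and a ratio, the fold of RNA FPKM plus 1 over input FPKM plus 1, per the file headers. The ratio was recomputed with a largest difference of 4.8e-14. A class per replicate, active or inactive, is also deposited. The submitters' processing notes name Bowtie2, TopHat2, Bowtie 1.2.2 and build mm9, without roles; filters are not given in the sources used here. All 76 members entered every step and none was dropped by a filter on low values, except in the alternative with an input minimum.

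Log2(FPKM + 1) of the 3 libraries was fitted with limma 3.58.1 (R 4.3.3; lmFit, then eBayes with trend), RNA against input. Each RNA library was first shifted by the median log2 fold of the Random class, -0.61 and -0.56. Keeping the input as a library gives it the error of the RNA libraries; no count model was fitted. Values with a pseudocount of 1 understate the change of low regions. Reads were recovered from FPKM steps, with 100% of values whole within 0.1 reads, and used for description. The test was checked on simulated data over 12897 regions. No genome of build mm9 was at hand, so no sequence of a reporter region is shown; promoters of Nfatc1 and S1pr1 are not shown.

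Regions named were, per window, all active ones, the highest, the lowest and the highest of a promoter or TSS class. The members, windows and lists were chosen with earlier results of these data known.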

Additional observations from a re-analysis of the deposited data

How the results depend on the processing

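No paired analysis was possible because both RNA replicates share 1 input library. With 1 RNA library and the input, limma has no residual spread to estimate, so replicates were left out only of the counts of active regions. Active regions numbered 6 in all and 2, 1, 2, 0 and 1 in the Runx3, Lef1, Nfatc1, S1pr1 and Mir181a-1 windows. At a fold of 2 there were 4 in all, beside 3.49% of all regions. The Lef1 window then held 0 and the Nfatc1 window 1. At a fold of 3 there was 1 in all, beside 0.985% of all regions. By window there were then 0, 0, 1 and 0 for Runx3, Lef1, Nfatc1 and Mir181a-1. With the authors' deposited class there were 3 in all, beside 2.7% of all regions, and 1, 0 and 1 for Runx3, Lef1 and Nfatc1. With an input of at least the first quartile, 11.4 FPKM, there were 3 of the 60 members left, beside 9.01% of all regions left, and 0 for Lef1 and Nfatc1. Over the Random median there were 16 in all and 6, 3, 4, 1 and 2 by window, beside 26.9% of all regions. From single replicates the counts were 9 to 10 in all, beside 13.6% and 14.6% of all regions, 4 to 5 for Runx3, 1 to 2 for Lef1 and 0 to 1 for S1pr1. By the mean log2 fold, an alternative chosen after the data were seen, there were 9 in all, beside 11.8% of all regions. Runx3 then had 4 and S1pr1 had 1.

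Regions called above Random by limma numbered 6. They numbered 1 with no centre, beside 2.61% of all regions, and 16 with the input taken as free of error, beside 24%. They numbered 8 of 60 with the input minimum, beside 21.4%, and 0 without the trend, when limma called 0 of all regions. Without the trend, 9 members lay above and 1 below Random at an unadjusted limma p under 0.05. Over all 12897 regions these counts were 1913 and 213. Regions below Random numbered 0, beside 0.442% of all regions. They numbered 1 with no centre, beside 0.713%, and 1 with the centre on all regions, beside 1.33%. Of the 6 calls, 6 were kept with a pseudocount of 0.1 FPKM, 6 with the input free of error, 5 with the centre on all regions and 1 with no centre. The Nfatc1 call lay under the input minimum. Without replicate 1 the median log2 fold changed sign in the Lef1 window, from -0.10 to 0.09, and in the Nfatc1 window, from -0.13 to 0.08. The causes of these shifts were not tested.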
